A study of Mus musculus with 6 samples.

Results

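The 31 genes described here mark the oligodendrocyte lineage, the cells that form myelin. They were looked up by symbol in the deposited table of 55487 genes, where each was found once, and were sorted by the stage at which they are best known: 6 mark precursors, 5 mark newly formed oligodendrocytes and 20 mark mature, myelinating ones. All 31 had a mean of at least 10 normalized reads and so were among the 18227 genes tested. RNA was sequenced from reporter-positive cells sorted from the subventricular zone of adult mice, the stem cell niche along the lateral ventricles. Knockout samples (EKO, genotype E2F1(-/-);E2F3(F/F)) were compared with heterozygous samples (EHT, genotype E2F1(+/-);E2F3(F/+)), with 3 libraries of pooled mice per genotype, lettered A, B and C. Mice of both genotypes carried NestinCreERT2 and an R26;EYFP reporter on a mixed C57BL/6;Sv/129;FVB/N background. They entered the experiment at 6 to 10 weeks of age, received tamoxifen by gavage on 5 days (200 mg per kg and day), and were dissected 10 days after the last dose. Cre under the Nestin promoter acts in neural stem cells, so the reporter marks these cells and their descendants. The E2F1 allele is not conditional, so its loss is not limited to reporter-positive cells, and the heterozygous samples also carry 1 mutant allele of each gene.

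Oligodendrocyte precursors arise from neural stem cells, including a minor output of the adult subventricular zone, and migrate into nearby white matter. They commit to differentiation under transcription factors such as those encoded by Olig2, Sox10, Nkx2-2 and Myrf, pass through a short newly formed stage, and then make the proteins and galactolipids of the myelin sheath. E2F factors, which switch on genes for DNA replication, act in dividing precursors, whereas mature oligodendrocytes no longer divide.

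Reads assigned to genes ranged from 19798675 to 25982361 per library. The targeted gene E2f1 had 375, 483 and 516 normalized reads in knockout libraries A, B and C, against 1152, 1388 and 1030 in heterozygous A, B and C. E2f3 had 324, 231 and 245 against 293, 205 and 253, counted over the whole gene, which does not check recombination. Some libraries stood apart within their genotype in markers of other cell types. The 10 choroid plexus markers summed to 1290 to 3851 normalized reads in the knockout libraries, and to 49099 in heterozygous A, against 810.3 and 814 in heterozygous B and C. Of the choroid plexus genes, Kl, Kcne2 and Slc4a5 were at 0 in heterozygous B, Kl and Kcne2 in heterozygous C, and Slc4a5 in knockout C. The 13 endothelial and mural markers summed to 59844, 36295 and 15153 in knockout libraries A, B and C, against 12976 to 22648 in the heterozygous libraries, with none at 0. The 9 fibroblast and meningeal markers, which include Pdgfra, summed to 1759 to 3068 in the knockout libraries, against 718 to 4066 in the heterozygous libraries. Without Pdgfra, which also marks precursors, the other 8 summed to 1954, 1577 and 1217 in knockout libraries A, B and C, against 615, 589 and 1095 in heterozygous A, B and C, without overlap. Of the whole list of 9, 8 genes were tested, Pdgfra among them. All 8 tested genes had a positive difference (median log2 1.56), though that of Pdgfra was only 0.005. In that list Lum was at 0 in knockout C and in all heterozygous libraries, Igf2 in knockout A and C, and Fmod in heterozygous B and C. The 10 microglia and macrophage markers summed to 3945 to 13208 in the knockout libraries, highest in A, against 2677 to 9106 in the heterozygous libraries, highest in C, with Mrc1 at 0 in knockout A and in heterozygous A and B.

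Of the 31 lineage genes 7 rose in knockout cells and 0 fell (limma with Benjamini-Hochberg adjustment, adjusted p under 0.05). Those that rose were Itpr2, Myrf and Nkx6-2 of the newly formed stage and Ermn, Aspa, Gjb1 and Tmem88b of the mature stage. Among all tested genes 7.23% were called higher and 8.59% lower, so 22.6% of the lineage genes called higher lies above the background and 0 called lower lies below it. None of the 31 was lower at an unadjusted p under 0.05 or with edgeR or DESeq2. The median log2 change was 0.61 over the 31 genes, against 0.05 over all tested genes, and 29 of the 31 differences were positive, although those of Gpr17, Neu4 and C1ql1 were negative with edgeR. Every knockout library lay above every heterozygous library for 13 of the 31, a separation found for 18.5% of tested genes, and below for 0 of the 31, found for 20.2% of tested genes. The count of 7 depended on single libraries: it was 3, 1 and 6 without knockout A, B and C, and 1, 2 and 4 without heterozygous A, B and C. Calls over all tested genes, in either direction, also changed in these fits, from 2883 with all libraries. They numbered 2230, 697 and 4019 without knockout A, B and C, and 906, 635 and 2336 without heterozygous A, B and C. A lower count was thus not particular to the lineage genes. In sorted bulk RNA, fewer cells of a type and less RNA per cell cannot be told apart, and a share of the reads freed by the loss of another cell type cannot be told apart from a gain. All 14 neuroblast markers fell in the same libraries, summing to 14606 to 18649 normalized reads in knockout libraries, against 78768 to 124225 in heterozygous libraries, with none at 0. Their part in the shift of the lineage genes was not tested.

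**Figure D1:**
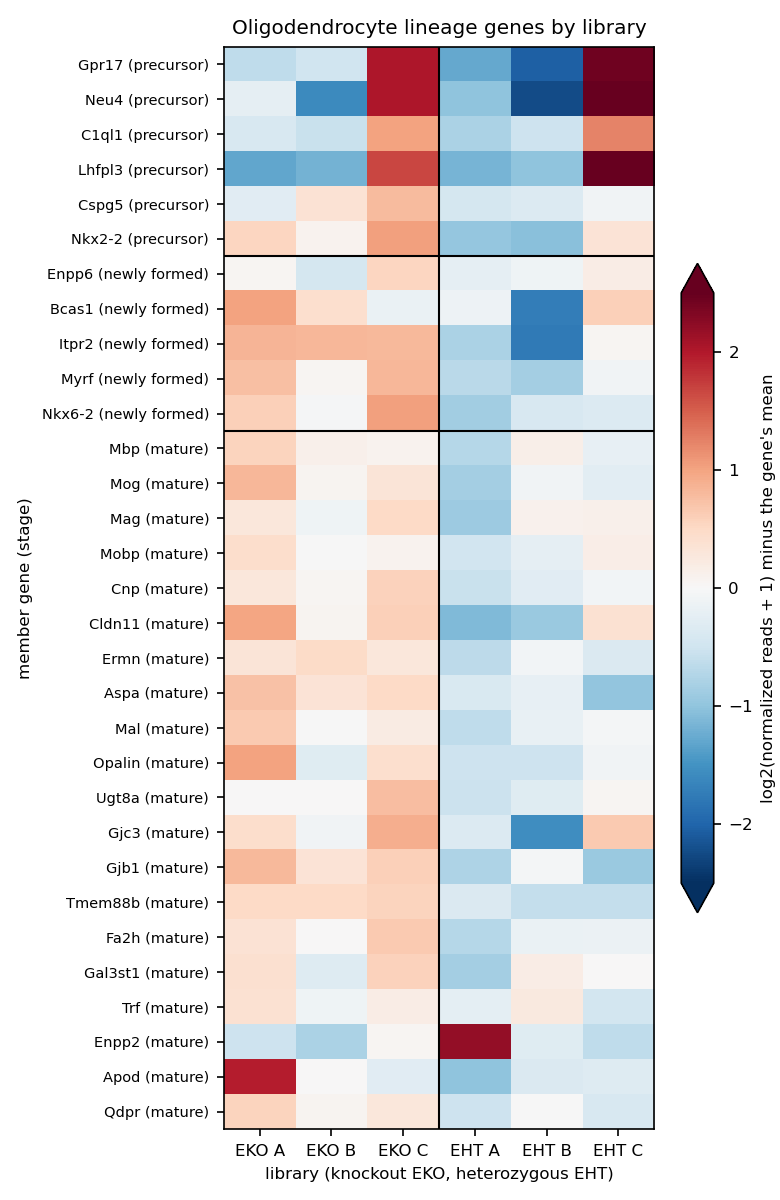
Colour gives log2(normalized reads + 1) minus the mean of the gene over the 6 libraries, for the 31 lineage genes (rows, by stage) in 3 knockout (EKO) and 3 heterozygous (EHT) libraries (columns). Gpr17, Neu4, C1ql1 and Lhfpl3 are highest in library C of both genotypes, while most mature genes are redder in the knockout columns, apart from Enpp2, which stands out in heterozygous A.

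**Figure D2:**
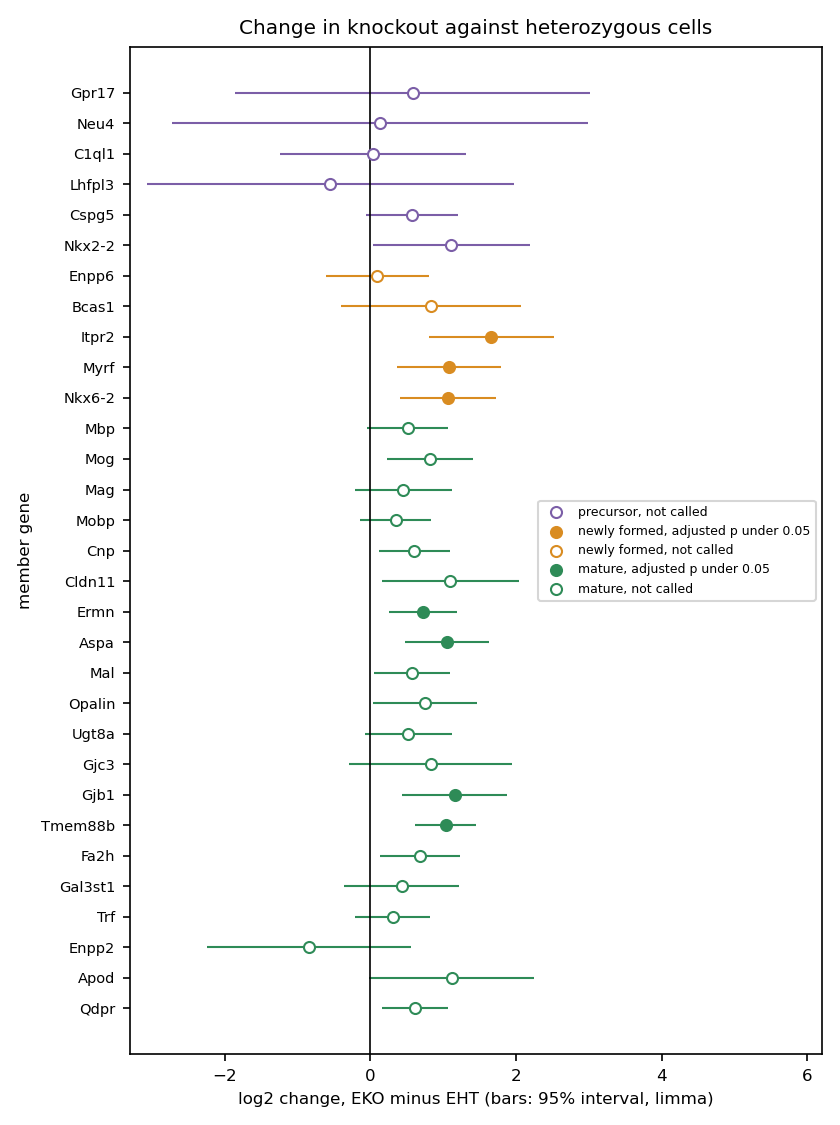
Points give the log2 change, knockout minus heterozygous, of each lineage gene from limma, with 95% intervals, and filled points passed an adjusted p of 0.05. The 7 filled points belong to the newly formed and mature stages, and the intervals of Gpr17, Neu4 and Lhfpl3 are the widest.

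The precursor genes did not separate the genotypes. Of the 6 none passed limma, edgeR or DESeq2, which gave no adjusted p for Gpr17 and Lhfpl3, and 1, Nkx2-2, had an unadjusted p under 0.05 in limma. Their median log2 difference was 0.35, but -0.14 with edgeR and -0.13 with DESeq2. Gpr17 encodes a receptor of committed precursors that is shut down before myelination. It had 137, 150 and 863 normalized reads in knockout libraries A, B and C, against 87.8, 51.0 and 1157 in heterozygous A, B and C. Library C of each genotype held most of the Gpr17 reads, and the groups overlapped (log2 difference 0.59, 95% interval -1.85 to 3.02). Neu4, which encodes a sialidase, had 113, 43.6 and 539 in the knockout libraries, against 65.6, 27.4 and 1108 in the heterozygous ones. Lhfpl3, a tetraspan membrane protein gene, had 41.7, 45.4 and 336, against 46.4, 51.9 and 827. C1ql1, which encodes a secreted C1q-like protein, had 267, 238 and 710, against 204, 246 and 838. For these 4 genes library C exceeded the higher of the other libraries by 2.67-fold to 7.40-fold among knockout libraries and by 3.41-fold to 16.9-fold among heterozygous libraries. Their 95% intervals for the genotype difference were wide, from -2.73 to 2.99 for Neu4, -3.07 to 1.98 for Lhfpl3 and -1.25 to 1.31 for C1ql1, so a change of 2-fold in either direction lay inside each of them.

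A further list of 15 precursor genes did not follow library C as a whole. Of these 7 were highest in library C of both genotypes, among them Pdgfra, Matn4 and Pcdh15, which were picked after their values were seen. The others departed from it in 1 genotype or both: Cspg4 was highest in knockout A, with 604, 495 and 567 normalized reads in knockout libraries A, B and C. Tnr (294, 290 and 184) and Lims2 (967, 418 and 279) were lowest in knockout C, and Sox6 and Vcan were highest among heterozygous libraries in A. Over the 15 genes, 11 were highest in knockout C among knockout libraries and 10 in heterozygous C among heterozygous libraries. Pdgfra, the receptor that carries the main growth signal of precursors, had 252, 182 and 1851 normalized reads in knockout libraries A, B and C, against 218, 129 and 2971 in heterozygous A, B and C. Matn4 had 140, 80.1 and 579, against 58.5, 49.0 and 852, and Pcdh15 had 137, 24.9 and 237, against 33.3, 70.5 and 551. The labels do not say that a shared letter marks a shared day, litter or batch. The microglial markers were also high in heterozygous C but not in knockout C (4234, against 13208 in knockout A), and a link with the precursor genes was not tested.

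Cspg5 and Nkx2-2 were less tied to library C. Cspg5 encodes a transmembrane chondroitin sulfate proteoglycan that astrocytes also make. It had 27357, 42323 and 57192 normalized reads in knockout libraries A, B and C, against 24426, 26234 and 31373 in heterozygous A, B and C. Knockout A lay inside the heterozygous range (adjusted p = 0.188), and without that library Cspg5 was called (log2 change 0.86, limma adjusted p = 0.0362). Nkx2-2, a homeodomain factor of differentiating precursors, had 132, 96.2 and 185, against 45.4, 43.1 and 115. Heterozygous C lay inside the knockout range, and the log2 difference of 1.11 ± 0.48 (SE) did not pass adjustment (limma adjusted p = 0.139).

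**Figure D3:**
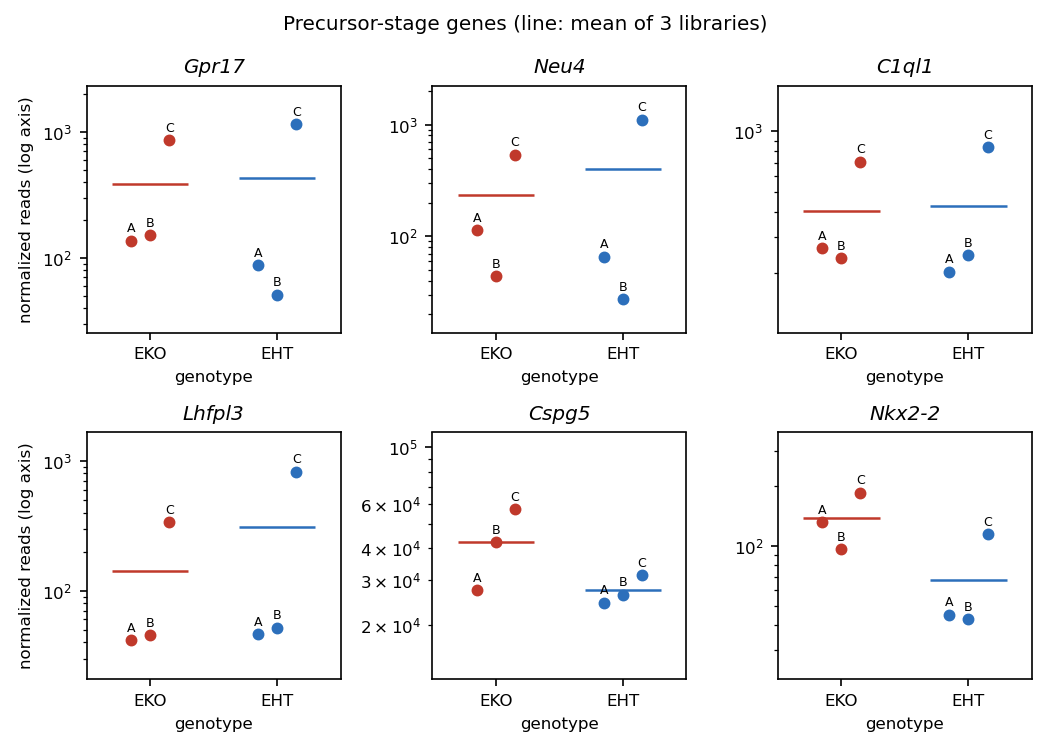
Normalized reads (log axis) of the 6 precursor genes in knockout (EKO, left) and heterozygous (EHT, right) libraries, with lines at the mean of 3 libraries and letters naming the libraries. For Gpr17, Neu4, C1ql1 and Lhfpl3 the point of library C lies far above those of A and B in both genotypes.

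Of the 5 newly formed genes 3 rose in knockout cells, with a median log2 change of 1.07. A further list of 14 genes of this stage, given below, had a lower median of 0.31, with 9 positive and 5 negative differences. The mean log2 level of the 5 was 9.39, 8.91 and 9.35 in knockout libraries, against 8.20, 7.77 and 8.83 in heterozygous ones, without overlap. Itpr2 encodes an inositol trisphosphate receptor that releases calcium from the endoplasmic reticulum and is also used by astrocytes. It had 1732, 1706 and 1683 normalized reads in knockout libraries A, B and C, against 557, 281 and 997 in heterozygous A, B and C. The knockout libraries were nearly equal and all lay above the heterozygous ones (3.17-fold, log2 change 1.66 ± 0.38, limma adjusted p = 0.0222). The 15 astrocyte and quiescent stem cell markers summed to 313478, 509470 and 557033 in knockout libraries A, B and C, against 281428, 242335 and 372521 in heterozygous A, B and C, and their part in the Itpr2 value was not tested. Myrf encodes the membrane-bound transcription factor that starts and maintains myelin gene expression. It had 505, 311 and 535, against 188, 168 and 282 (2.11-fold, log2 change 1.08 ± 0.32, limma adjusted p = 0.0478). The groups did not overlap, but knockout B lay close to heterozygous C, and with edgeR the adjusted p was 0.0520. Nkx6-2, a homeodomain factor of myelinating glia, had 1131, 727 and 1519, against 409, 564 and 590 (2.09-fold, log2 change 1.07 ± 0.29, adjusted p = 0.0384), without overlap. The calls depended on single libraries, as did the number of calls over all tested genes. Itpr2 lost its call without heterozygous A (adjusted p = 0.0749), heterozygous B (0.0606) or knockout B (0.0774). With 1 library left out, Myrf kept its call only without heterozygous C and Nkx6-2 only without knockout B.

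Enpp6 and Bcas1, which are used to pick out oligodendrocytes that have only just begun to differentiate, did not pass. Enpp6, a choline phosphodiesterase gene, had 262, 186 and 368 normalized reads in knockout libraries A, B and C, against 216, 234 and 290 in heterozygous A, B and C. Its groups overlapped widely (log2 difference 0.10, 95% interval -0.61 to 0.81). Bcas1, which encodes a protein of early myelin, had 527, 348 and 232, against 237, 78.4 and 395 (log2 difference 0.84 ± 0.55, limma adjusted p = 0.311). Knockout C lay below heterozygous A and C, and without both C libraries, a choice made after seeing the data, the Bcas1 change was 1.64 (adjusted p = 0.0284).

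Among the 20 mature genes 4 rose and 0 fell. The median log2 change was 0.65, and 19 of the 20 differences were positive, against 52.3% of all tested genes. At an unadjusted p under 0.05 there were 11 of the 20 (55%), all with a positive difference, while 33.4% of all tested genes reached that p in either direction. The knockout libraries contributed unequally: 17, 10 and 16 of the 20 genes lay above every heterozygous library in knockout A, B and C, where 37.7%, 36% and 33.3% of all tested genes did so. Heterozygous A was the lowest library for 14 of the 20. Without both A libraries, an alternative added after seeing the data, none of the 20 was called and the median was 0.38. In that fit 448 of 17872 tested genes were called in either direction, against 2883 of 18227 with all libraries. The absence of calls there was thus not particular to the mature genes.

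Tmem88b, a gene for a small transmembrane protein, had the smallest standard error of the 31. It had 1220, 1220 and 1280 normalized reads in knockout libraries A, B and C, against 673, 568 and 574 in heterozygous A, B and C (2.05-fold, log2 change 1.04 ± 0.19, limma adjusted p = 0.00928). The 2 groups were far apart relative to their spread, and over 20 alternatives the call was lost only without knockout B (adjusted p = 0.0573) and without both A libraries (0.0558). Aspa encodes aspartoacylase, which cleaves N-acetylaspartate and so supplies acetate for myelin lipids. It had 976, 747 and 825, against 447, 505 and 297 (2.08-fold, log2 change 1.05 ± 0.26, adjusted p = 0.0260). Ermn, which encodes the cytoskeletal protein ermin of late oligodendrocytes, had 1357, 1520 and 1320, against 691, 1032 and 840 (1.66-fold, log2 change 0.73 ± 0.21, adjusted p = 0.0435). Gjb1, which encodes a connexin of oligodendrocyte gap junctions, had 370, 267 and 317, against 123, 204 and 111 (2.23-fold, log2 change 1.16 ± 0.32, adjusted p = 0.0405). None of these 3 had overlapping groups, but Aspa and Ermn were not called without any 1 of heterozygous A, B or C or knockout A or B, nor Gjb1 without heterozygous A or C or knockout A or B.

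**Figure D4:**
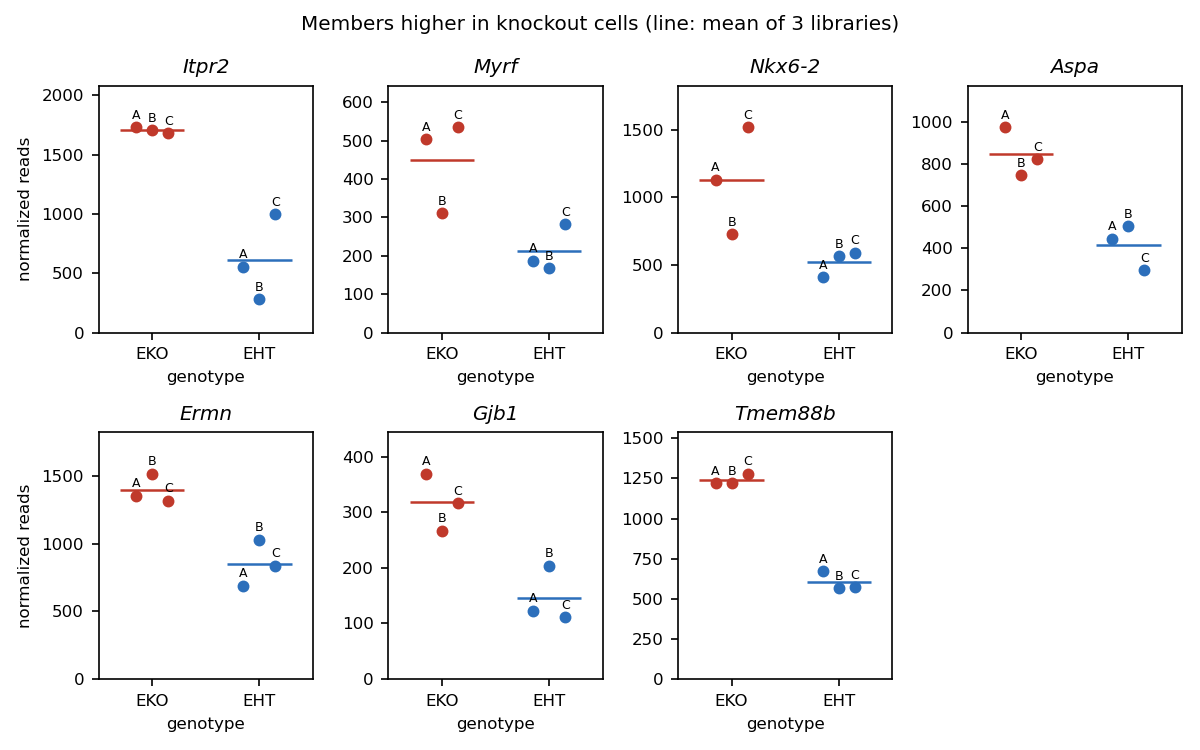
Normalized reads of the 7 lineage genes called higher in knockout cells, in knockout (EKO, left) and heterozygous (EHT, right) libraries, with lines at the mean of 3 libraries. No groups overlap, and Tmem88b and Itpr2 have nearly equal values in the 3 knockout libraries.

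The promoters of these 4 mature genes are shown because they are the mature genes that were called higher. Each run covers 250 bases before to 50 bases after a RefSeq start site on GRCm38.p6, written 5′ to 3′ in the direction of transcription. Capitals mark CTGGNAC, a loose form of the letters bound by the Myrf protein, and ACAAAG, letters bound by Sox factors. In the loose form N is any base, so a match need not be a form that Myrf binds. Both were searched on both strands, so a run with no capitals holds neither. The runs lie at chr4:155785825-155786124 (Tmem88b, minus strand), chr11:73324588-73324887 (Aspa, minus), chr2:58052815-58053114 (Ermn, minus) and chrX:101383482-101383781 (Gjb1, plus, the 1 of its 4 RefSeq starts with both motifs).
Tmem88b: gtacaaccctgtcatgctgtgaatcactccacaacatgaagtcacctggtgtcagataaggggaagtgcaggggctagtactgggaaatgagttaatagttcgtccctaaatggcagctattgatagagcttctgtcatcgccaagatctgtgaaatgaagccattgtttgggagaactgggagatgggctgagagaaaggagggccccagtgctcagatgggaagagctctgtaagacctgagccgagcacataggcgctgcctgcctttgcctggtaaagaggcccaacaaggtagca
Aspa: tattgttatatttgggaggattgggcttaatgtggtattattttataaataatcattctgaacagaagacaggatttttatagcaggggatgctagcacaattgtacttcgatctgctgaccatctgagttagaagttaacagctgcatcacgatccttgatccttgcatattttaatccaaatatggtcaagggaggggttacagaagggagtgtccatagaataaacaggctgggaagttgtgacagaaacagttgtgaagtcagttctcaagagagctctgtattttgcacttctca
Ermn: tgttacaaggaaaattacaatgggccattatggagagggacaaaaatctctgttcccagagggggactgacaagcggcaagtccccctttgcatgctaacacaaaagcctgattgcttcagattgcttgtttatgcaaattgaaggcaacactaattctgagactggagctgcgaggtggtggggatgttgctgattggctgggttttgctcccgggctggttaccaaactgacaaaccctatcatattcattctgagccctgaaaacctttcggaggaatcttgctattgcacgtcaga
Gjb1: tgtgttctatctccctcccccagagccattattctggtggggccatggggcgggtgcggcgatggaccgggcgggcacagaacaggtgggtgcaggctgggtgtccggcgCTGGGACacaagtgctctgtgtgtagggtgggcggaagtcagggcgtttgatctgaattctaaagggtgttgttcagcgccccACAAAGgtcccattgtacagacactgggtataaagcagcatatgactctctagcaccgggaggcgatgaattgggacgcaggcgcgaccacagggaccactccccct

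RefSeq gave 29 such promoters for 22 of the 31 genes, and none was matched for Enpp2, Gpr17, Trf, Bcas1, C1ql1, Mbp, Myrf, Cspg5 and Fa2h. The E2F letters TTTGGCGC, TTTCCCGC, TTTCGCGC and TTTGCCGC were in 0 of the 29, and in 2.27% of 32851 promoters in all. CTGGNAC, the loose Myrf form, was in promoters of Apod, Cnp, Gjb1, Mag, Mog and Opalin, 8 of the 29, against 19.3% of all promoters. The match was CTGGGAC in Gjb1 and CTGGAAC in Apod. ACAAAG was in promoters of Apod, Cnp, Gjb1, Mag, Mobp and Opalin, also 8 of the 29, against 18.7%. The letters CAGCTG, a form bound by Olig2 and related factors, were in 4 of the 29, against 16.3%. CACTTAA or CACTTGA, bound by the Nkx2 class, were in 3, against 5.34%, and TATAAA was in 2, against 13.6%. These 6 searches can overlap, promoters of 1 gene can share bases, and a match is a run of letters and not a shown binding site. Of the called genes with a promoter here, Gjb1 alone held either of the marked motifs, and Itpr2, Nkx6-2, Ermn, Aspa and Tmem88b held neither.

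Of the 8 other mature genes for myelin proteins none passed, with log2 differences of 0.35 to 1.10. Mbp, whose product compacts the myelin membrane, had 12001, 8827 and 8630 normalized reads in knockout libraries A, B and C, against 4947, 9002 and 7060 in heterozygous A, B and C. Heterozygous B lay inside the knockout range (log2 difference 0.51 ± 0.25, limma adjusted p = 0.181). Mog, a protein of the outer myelin surface, had 3949, 2333 and 2769, against 1223, 2081 and 1837. These groups did not overlap, yet the log2 difference of 0.82 ± 0.26 narrowly missed the threshold (adjusted p = 0.0625), and DESeq2 called it (adjusted p = 0.0281). Cnp, an enzyme gene of uncompacted myelin, had 16347, 13841 and 19942, against 9100, 10976 and 12808, without overlap (adjusted p = 0.0820). Mal, a proteolipid gene, had 6283, 3934 and 4610, against 2553, 3513 and 3870, also without overlap (adjusted p = 0.122). Mag, an adhesion protein gene of the inner myelin surface, had 3704, 2811 and 4314, against 1611, 3275 and 3319, and Mobp had 4639, 3383 and 3593, against 2450, 2926 and 3814. Both overlapped, with log2 differences of 0.45 and 0.35 (adjusted p = 0.311 and 0.288). Opalin, a sialylated membrane protein gene, had 1651, 670 and 1106, against 574, 579 and 774, with knockout B inside the heterozygous range (adjusted p = 0.132). Cldn11, the claudin of myelin tight junctions, had 568, 301 and 431, against 132, 151 and 372. It missed the threshold over all libraries (log2 difference 1.10 ± 0.42, limma adjusted p = 0.101) and passed without heterozygous C (1.56, adjusted p = 0.0289).

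The enzymes of myelin galactolipids had positive differences that did not pass. Ugt8a, which makes galactosylceramide, had 1017, 1015 and 1742 normalized reads in knockout libraries A, B and C, against 701, 818 and 1053 in heterozygous A, B and C (log2 difference 0.52, limma adjusted p = 0.199). Fa2h, which hydroxylates its fatty acid, had 1185, 924 and 1444, against 564, 818 and 834, without overlap (0.68, adjusted p = 0.0868). Gal3st1, which adds sulfate to make sulfatide, had 473, 287 and 536, against 200, 409 and 362 (0.43, adjusted p = 0.415). Only Fa2h kept the groups apart among these 3. Gjc3, a connexin gene of oligodendrocytes, had 595, 416 and 824, against 347, 149 and 698, with overlapping groups (0.83, adjusted p = 0.271).

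The remaining mature genes are less specific to myelin, and 2 of them were led by 1 library. Enpp2, which encodes autotaxin, a secreted enzyme also made in quantity by the choroid plexus, had 5694, 4692 and 8455 normalized reads in knockout libraries A, B and C, against 37522, 6623 and 5248 in heterozygous A, B and C. The high value was in the library where the choroid plexus gene Ttr stood at 44005, while Ttr had 1123, 232 and 351 in knockout A, B and C and 12.7 and 3 in heterozygous B and C. Heterozygous A was highest for 7 of the 10 choroid plexus markers, with a mean log2 level of 9.53 over the list, against 3.95 and 3.76 in heterozygous B and C. Clic6, the gene of second highest mean in the list, was an exception, with 1046, 810.3 and 255 in knockout libraries A, B and C, against 807, 292 and 177 in heterozygous A, B and C. The log2 difference of Enpp2 was -0.84 ± 0.62 (limma adjusted p = 0.371). Without heterozygous A it was 0.05, the opposite sign, and the part of choroid plexus RNA in it was not tested. Without both C libraries Enpp2 was called lower (-1.61, adjusted p = 0.0471), a setting that keeps heterozygous A.

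Apod, a lipid-binding lipocalin gene also expressed by pericytes and meningeal cells, had 8234, 2114 and 1740 normalized reads in knockout libraries A, B and C, against 1058, 1649 and 1685 in heterozygous A, B and C. The groups did not overlap, but knockout A was 4.73-fold above knockout C, which nearly met the heterozygous values (log2 difference 1.12 ± 0.50, limma adjusted p = 0.153). Knockout A was also highest for 12 of 13 endothelial and mural markers, among them Vtn (14630, 12392 and 4897, against 3711, 5513 and 9567) and Rgs5 (8954, 6656 and 1908, against 1673, 2267 and 3403). The fibroblast and meningeal markers other than Pdgfra also summed highest in knockout A (1954). The part of these cells in the Apod value was not tested, and without knockout A the log2 difference of Apod was 0.42. Without knockout C, in contrast, Apod was called higher (1.54, adjusted p = 0.0296). Trf, which encodes the iron carrier transferrin, had 14712, 10459 and 12876, against 9562, 13324 and 8232, with overlap (0.31, adjusted p = 0.380). Its exons share 63.5% of their bases with another annotated gene, Gm20425, so its count is uncertain. Qdpr, a tetrahydrobiopterin-recycling enzyme gene, had 5450, 3915 and 4543, against 2610, 3669 and 2826, without overlap (0.61, adjusted p = 0.0692), and 18.6% of its exon bases lie in another gene. Smaller shares of exon bases fall in other genes for Lhfpl3 (17.6%), Nkx6-2 (12.9%), Bcas1 (12.6%), Nkx2-2 (9.67%), Ermn (6.52%), Enpp2 (5.97%), Cnp (4.23%), Gpr17 (3.62%) and Mobp (1.15%). How reads in shared bases were counted was not checked, so reads may be missing from these counts or added to them.

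**Figure D5:**
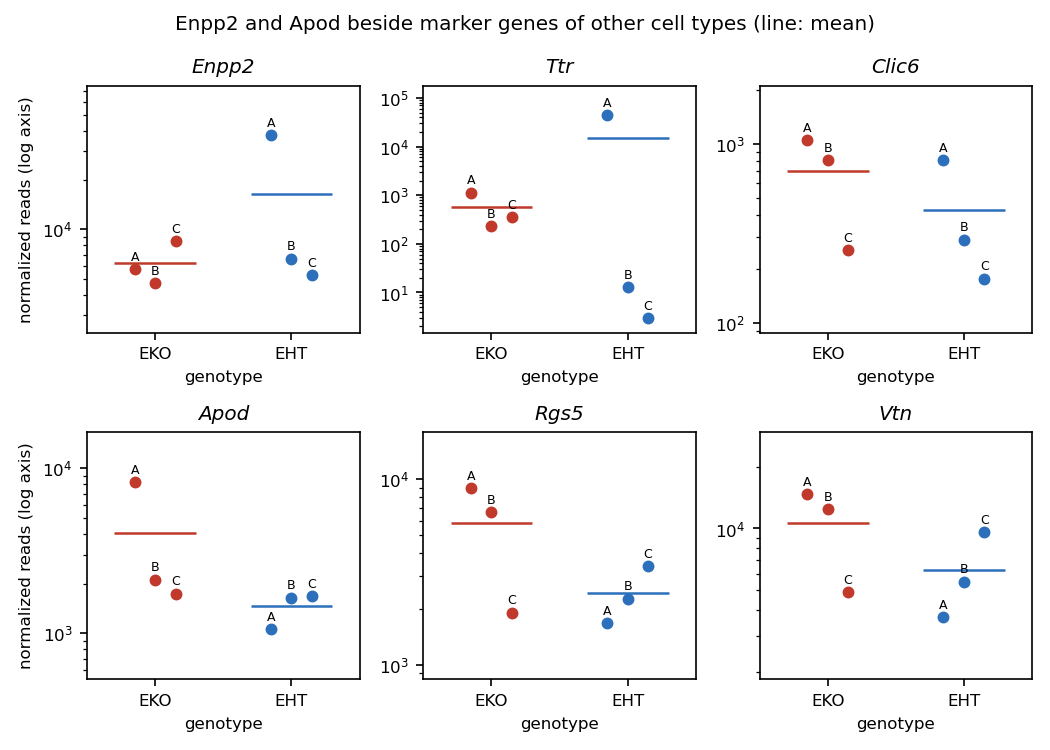
Normalized reads (log axes) of Enpp2 beside the choroid plexus genes Ttr and Clic6, and of Apod beside the mural genes Rgs5 and Vtn, in knockout (EKO, left) and heterozygous (EHT, right) libraries, with lines at the mean. Enpp2 and Ttr share their highest library, heterozygous A, and Apod, Rgs5 and Vtn share theirs, knockout A.

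Levels were compared between genes as RPKM, recovered reads scaled by merged exon length and by assigned reads. Cnp ranked first of the 31 over both genotypes, at 196 ± 28.2 RPKM in knockout and 127 ± 24.4 in heterozygous libraries (SD, n = 3 each). Cspg5 and Trf followed in the same range, at 177 ± 50.5 and 165 ± 35.2 in knockout libraries, against 115 ± 18.7 and 131 ± 27.1 in heterozygous ones. The ranges of Cnp, Cspg5 and Trf overlapped in both genotypes, and the Trf level is as uncertain as its count. Mog stood at 76.8 ± 26.0 RPKM in knockout and 42.3 ± 10.2 in heterozygous libraries, and Mbp at 50.3 ± 13.2 in knockout and 34.7 ± 9.01 in heterozygous libraries. Of the transcription factor genes, Nkx6-2 ranked 12 of the 31 over both genotypes, while Myrf and Nkx2-2 were the lowest of all. Nkx6-2 had 25.2 ± 7.81 RPKM in knockout libraries, against 11.5 ± 2.23 in heterozygous ones. Myrf had 2.26 ± 0.606, against 1.05 ± 0.344, and Nkx2-2, ranked last of the 31 over both genotypes, had 2.04 ± 0.561, against 1.01 ± 0.644. Neighbours in this order often overlapped, as Nkx2-2, Myrf and Enpp6 (1.81 ± 0.519 in knockout and 1.63 ± 0.306 in heterozygous libraries) did.

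A further 58 lineage genes were listed by stage, all tested. Of these 11 rose and 5 fell, with a median log2 change of 0.59 and 46 positive differences, against a median of 0.05 and 52.3% positive over all tested genes. The 19.0% that rose lie above the 7.23% of all tested genes called higher, and the 8.62% that fell are the same as the background of 8.59%, so the falls named here are values of single genes. The count of 11 was 9, 1 and 10 without knockout A, B and C, and 1, 3 and 8 without heterozygous A, B and C. The count of 5 that fell was 4, 1 and 6 without knockout A, B and C, and 3, 4 and 5 without heterozygous A, B and C. Among 15 precursor genes none rose and 1 fell. This was Vcan, the matrix proteoglycan versican, which neuroblasts also make, at 373, 515 and 666 normalized reads in knockout libraries A, B and C, against 1870, 1011 and 1474 in heterozygous A, B and C (log2 change -1.48 ± 0.29, limma adjusted p = 0.0130). The neuroblast markers fell in the same libraries, and their part in the Vcan value was not tested. Sox8, next by p in that list, had 1614, 2089 and 2653, against 1256, 1362 and 1324 (adjusted p = 0.0628). Among 14 newly formed genes 4 rose (28.6%) and 2 fell (14.3%), both above the shares of all tested genes. Their median log2 change was 0.31, with 9 positive and 5 negative differences, so this list did not move in 1 direction. Cnksr3, a signalling scaffold gene, rose 2.12-fold and Gpr37, a receptor gene of the myelinating lineage, 1.83-fold, while the ubiquitin ligase gene Rnf122 fell 2.81-fold and Fyn, a kinase gene also used in neurons, 1.85-fold.

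Among 29 further mature genes 7 rose and 2 fell, with a median log2 change of 0.79. Plekhb1, which astrocytes also express, had 22056, 18525 and 17270 normalized reads in knockout libraries A, B and C, against 7978, 6434 and 7741 in heterozygous A, B and C (2.61-fold, limma adjusted p = 0.00283), and the groups were far apart. Pex5l rose 3.47-fold, with 673, 387 and 274, against 157, 70.5 and 151. The genes that fell were Anln, which encodes anillin, a protein of cell division as well as of myelin (2.25-fold, adjusted p = 0.00804), and Stmn4, a microtubule regulator also of neurons (2.74-fold, adjusted p = 0.0142). Of 25 genes for sphingolipid, fatty acid and cholesterol synthesis 3 rose (12%) and 1 fell (4%), against 7.23% and 8.59% of all tested genes (median 0.24). An unadjusted p under 0.05 was reached by 32% of the list, against 33.4% of all tested genes, so the list as a set was near the background. The highest by mean were Scd2 (34159, 52413 and 67743, against 37741, 21764 and 31012, adjusted p = 0.121) and Srebf1 (11941, 15113 and 20846, against 8101, 7692 and 9645, adjusted p = 0.0339).

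Markers of other glia and of non-neural cells also had positive medians, so a positive shift was not shown to be particular to the oligodendrocyte lineage or to glia. All 13 endothelial and mural markers had a positive difference (median log2 0.99, 1 called higher). Differences were also positive for 8 of 9 tested microglia and macrophage markers (median 0.26, 0 called) and 6 of 10 choroid plexus markers (median 0.32, 0 called). The choroid plexus share was near the 52.3% of all tested genes. In these last 2 lists the median SE, 0.85 and 1.45, exceeded the median difference, so neither showed a clear shift. Of 15 astrocyte and quiescent stem cell markers 3 rose and 0 fell (limma; 9 had an unadjusted p under 0.05), with a median log2 change of 0.81 and the sums given with Itpr2. Of 10 ependymal markers 7 rose, with a median of 1.62 and sums of 80226, 48393 and 18885 in knockout libraries A, B and C, against 13172 to 14209 in heterozygous libraries. None of these 25 markers was at 0 in any library. The mature oligodendrocyte genes had a mean log2 level of 11.26, 10.72 and 11.10 in knockout libraries A, B and C, against 10.21, 10.45 and 10.50 in heterozygous A, B and C. The mean log2 level of the ependymal markers was 11.97, 11.28 and 9.80, against 9.50, 9.48 and 9.45. Both lists were highest in knockout A, but the order of knockout B and C differed, and a link between the lists was not tested. Of 10 mature neuron markers, 8 tested, 4 fell and 2 rose (median -1.18), with sums of 10232 to 10876 in knockout libraries, against 13070 to 16777 in heterozygous libraries, with Slc17a7 at 0 in all but knockout C, and Drd1 at 0 in knockout B and C and heterozygous B.

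In the authors' deposited table, which used DESeq2 with weighted adjustment, 10 of the 31 genes were listed higher at an adjusted p under 0.05 and 0 lower. The share of all genes so listed was not counted, so these counts have no matching background. In the DESeq2 run made here, without weights, 4452 of 31667 genes were called in either direction. The 10 genes listed by the authors were the 7 called here and Mog (log2 fold change 0.82, adjusted p = 0.0256 in the authors' deposited table), Cnp (0.61, 0.0422) and Qdpr (0.61, 0.0370). Of the 6 precursor genes the authors' deposited table listed 0, and gave no adjusted p for Gpr17 and Lhfpl3.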

How the data were processed

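RNA from 6 pooled, sorted samples was measured. Per the labels' protocols, cDNA came from SMART-Seq v4 and libraries from Nextera XT, kits that do not mark strand. Each value per library is a signal, made by the authors as read counts over 1 size factor for that library. The submitters' processing notes name HISAT2, featureCounts, Subread and DESeq2 on GRCm38, with no versions. The authors' log2 fold change with its error, their statistic and weight (scores), and their p-value and adjusted p-value columns were deposited beside them. Whole reads could be recovered for 100% of values within 0.01 reads.

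Genes with a mean of at least 10 (18227) were tested two-sided with limma 3.58.1 (R 4.3.3, mean-variance trend) on log2(value + 1). Genotype was the sole covariate, and p-values were adjusted over all tested genes by Benjamini-Hochberg. Fold changes on that scale understate changes of low genes. Errors after ± are SE for log2 changes and SD for levels. edgeR 4.0.16 and DESeq2 1.42.0 on recovered reads were alternatives, beside other pseudocounts, filters and scalings, a replicate block and libraries left out. The fit was tested on simulated data. Libraries pool mice, so p-values measure the spread between pools. Every pair of libraries differed by more than sampling noise (smallest chi-square over its degrees of freedom 46.9). The members, stages and lists were chosen with earlier results of these data known. All 31 members are named. From the other lineage lists the called genes of largest change are named, or with under 2 called those of smallest p, and from further lists those of highest mean. Exon lengths came from GENCODE M21, and promoters from RefSeq (GRCm38.p6). Figures used matplotlib 3.10.9 (Python 3.11.15).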

Additional observations from a re-analysis of the deposited data

How the results depend on the processing

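No called direction of a lineage gene reversed under any alternative run, and no member was called lower except Enpp2 without both C libraries, which made the lower count 1. The count of 7 members higher was 6 to 9 with edgeR, upper-quartile scaling, DESeq2, other pseudocounts, a minimum mean of 50 and equal totals. It was 1 without the mean-variance trend, 4 without a filter on low values, 11 at an adjusted p under 0.1, 1 to 6 with 1 library left out and 0 without both A libraries. Calls over all genes, in either direction, moved too, from 2883 of 18227 as reported. They were 1036 without the trend, 2403 of 31667 without a filter, 635 to 4019 with 1 library left out and 448 without both A libraries. The 11 further lineage genes higher became 1 without the trend, 7 without a filter, 17 at 0.1 and 1 to 16 with libraries left out, and the 5 lower became 2 without the trend and 1 to 6 with libraries left out. The median of all tested genes was 0.13 with upper-quartile scaling, against 0.05 as reported. The cause of these changes was not tested, apart from fewer libraries or more genes entering the fit.

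Over all tested genes, samples with the same letter did not deviate together: the correlations of their deviations from the group means were -0.07, 0.02 and -0.10 for A, B and C. A correlation over all genes cannot speak for a small set, such as the precursor genes highest in library C of both genotypes. With a replicate block 4 members and 7 further lineage genes were higher in limma, and 2 of each in edgeR. Over all genes the block left 2310 of 18227 called in either direction in limma and 1469 of 19483 in edgeR. Ermn (adjusted p = 0.0840), Gjb1 (0.0696) and Myrf (0.0518) lost the call in limma with the block. Nor did each library correlate best with its own letter: knockout A correlated most with heterozygous C (0.16). The median change of the precursor genes ran from -0.37 to 1.18 over the alternatives and was negative with edgeR, DESeq2, upper-quartile scaling, and without heterozygous A, heterozygous B or knockout C. That of the newly formed genes ran from 0.86 to 1.32 and of the mature genes from 0.38 to 0.73.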
